A study of Mus musculus with 24 samples.

Results

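The 10 genes described here are Peg3, Usp29, Mest, Peg10, Sgce, Grb10, Plagl1, Nnat, Impact and Zrsr1, which are imprinted genes lying outside the large imprinted clusters of distal chromosome 7, chromosome 12 and chromosome 17. They were taken by name from the 22380 protein-coding genes of the GENCODE M1 annotation of mm9, and the rule uses no measured value. Of these 10 genes, 8 reached a mean above 3 RPKM (tags per kilobase of exon, scaled to the unique tags of the library) in at least 1 tissue and were among the 10306 genes tested.

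RNA was depleted of ribosomal RNA and sequenced from mouse CCE embryonic stem cells and from mouse fetal head (FH). CCE is a 129/SvEv line that was grown for 5 days without LIF and with 0.266 uM retinoic acid, and FH was taken from FVB/N fetuses at 14.5 dpc. No engineered allele is named for either source. The RiboMinus kit gave 7 cDNA preparations that were each sequenced at Vienna-IMP and at Nijmegen, namely CCE1 and CCE2 fragmented by cDNA shearing or by RNA hydrolysis, FH1 sheared, FH1 hydrolysed and FH2 hydrolysed. FH2 went through 2 rounds of depletion and every other preparation through 1. The Ribo-Zero kit gave 1 hydrolysed library per tissue from other RNA of the same sources. The CCE preparations are technical replicates and no separate animals are stated for FH, so p-values below measure the spread between preparations, some of which share RNA. Both sources are inbred, so the tags do not tell the parental copies apart and which copy was active was not measured.

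An imprinted gene is expressed from only 1 parental chromosome, as set by DNA methylation that is laid down in the egg or the sperm and then copied through cell division. The zinc finger protein ZFP57 holds this methylation in place after fertilisation by binding a methylated hexamer, TGCCGC, together with TRIM28. Most of the genes described here are paternally expressed and several act on fetal growth, the placenta or the nervous system. Grb10 is the exception, being maternally expressed in most tissues and paternally expressed in neurons.

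The RiboMinus libraries ranged from 920424 to 2473448 uniquely placed tags, and the Ribo-Zero libraries had 28708715 (CCE) and 48426051 (FH). Every marker tested of neurons (4), neural progenitors (4), red cells (4), skeletal muscle (4) and cartilage or bone (5) was called higher in FH, where 19.9% of all genes tested were, and most of these markers passed the filter on their FH level alone. Sox2, a progenitor marker, had the reverse order in Ribo-Zero (42.7 RPKM in CCE, 21.4 RPKM in FH). Summed neuron markers lay between 28.2 and 33.9 RPKM in CCE preparations and between 320.7 and 579 RPKM in FH. Of the 7 primitive endoderm markers 6 were called lower in FH, where 34.8% of all genes tested were, and Gata4, Gata6, Lama1 and Foxa2 passed the filter on their CCE level alone. The sums of these markers were 94.8 to 170.2 RPKM in CCE and 17.4 to 19.6 RPKM in FH. Summed pluripotency markers lay between 31.6 and 34.2 RPKM in CCE and between 0 and 0.14 RPKM in FH, with Pou5f1, a pluripotency factor, at 17.96 RPKM in CCE and at 0 in each FH preparation. Hes5, Fabp7, Hbb-b1, Hba-a1, Myog, Myh3 and Chrna1 were at 0 in each CCE preparation and Gata4, Pou5f1 and Zfp42 in each FH preparation. These markers moved together with every difference between the tissues given below, their part in the results was not tested, and in such bulk RNA fewer cells of a type and less RNA per cell cannot be told apart.

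The starts of the genes are shown first, since this is where the hexamer named above was looked for. A window of 300 bases, 250 before and 50 after the start, was searched on both strands for TGCCGC, the unmethylated letters of the hexamer ZFP57 binds. It was present at 13.6% of all 22380 gene starts. Among the 10 genes the window at the annotated start held it for Peg10, Sgce, Plagl1 and Nnat and did not hold it for Peg3, Usp29, Mest, Grb10, Impact and Zrsr1. Bases outside these windows, such as the rest of a first exon or intron, were not searched. A window without the hexamer therefore does not show that the locus lacks it. Usp29 is annotated as 1 exon that is coding in 2607 of its 2610 bases, so its window need not hold a promoter. Mest and Grb10 each have a second annotated start below which nearly all of their tags lay (given with each gene), and there the hexamer was found 2 times for Mest and 1 time for Grb10. These 2 further windows were chosen after the tags had been seen. The copies nearest to the starts follow, 5′ to 3′ on the gene's own strand in mm9, with the hexamer or its reverse complement in capitals. They show that Peg10 and Sgce, which are transcribed away from each other from starts 102 bases apart, share a single copy.
Peg10 (chr6:4697217-4697246, plus strand): caaagcagtgcaTGCCGCgcccccacccca
Sgce (chr6:4697217-4697246, minus strand): tggggtgggggcGCGGCAtgcactgctttg
Mest, second start (chr6:30687971-30688000, plus strand): aggaggggcgctGCGGCAggatgggcgggt
Grb10, second start (chr11:11937382-11937411, minus strand): gggtgcggggagGCGGCAggaagggaaggg
Plagl1 (chr10:12810334-12810363, plus strand): acctgcgccaacGCGGCAcctaggagacct
Nnat (chr2:157385829-157385858, plus strand): gccaccggggctGCGGCAttgcgcccagca

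CpG pairs in these windows ranged from 1 at the Usp29 start to 44 at the second Grb10 start, against a median of 11 over all gene starts. The second Grb10 start had more CpG pairs than 97.4% of gene starts, and the annotated Usp29 start, which is the edge of a coding exon, more than 4.88%. A match of letters is a description of the genome and was not compared with any binding or methylation measurement.

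In CCE, Peg10 was the highest at 334 ± 94.5 RPKM (SD, n = 4 preparations), above 99.6% of the tested genes, followed by Grb10 at 205 ± 30.8 RPKM, whose range overlapped that of Peg10, and Nnat at 154 ± 24.6 RPKM. Peg3, Plagl1, Impact and Mest followed with means of 61.0, 50.4, 49.3 and 33.9 RPKM, each range overlapping the next. Sgce stood at 12.2 ± 3.50 RPKM, and Zrsr1 and Usp29 were the lowest with means of 0.985 and 0.538 RPKM and overlapping ranges. In FH, Nnat led with 1248 ± 335 RPKM (n = 3 preparations), followed by Mest at 168 ± 12.3 RPKM and Grb10 at 104 ± 9.504 RPKM. Plagl1 and Peg10 overlapped at 32.2 and 25.4 RPKM, as did Peg3 and Sgce at 15.6 and 9.08 RPKM. Impact at 2.89 RPKM, Usp29 at 1.62 RPKM and Zrsr1 at 0.511 RPKM closed the order, and the ranges of these neighbours overlapped.

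**Figure D1:**
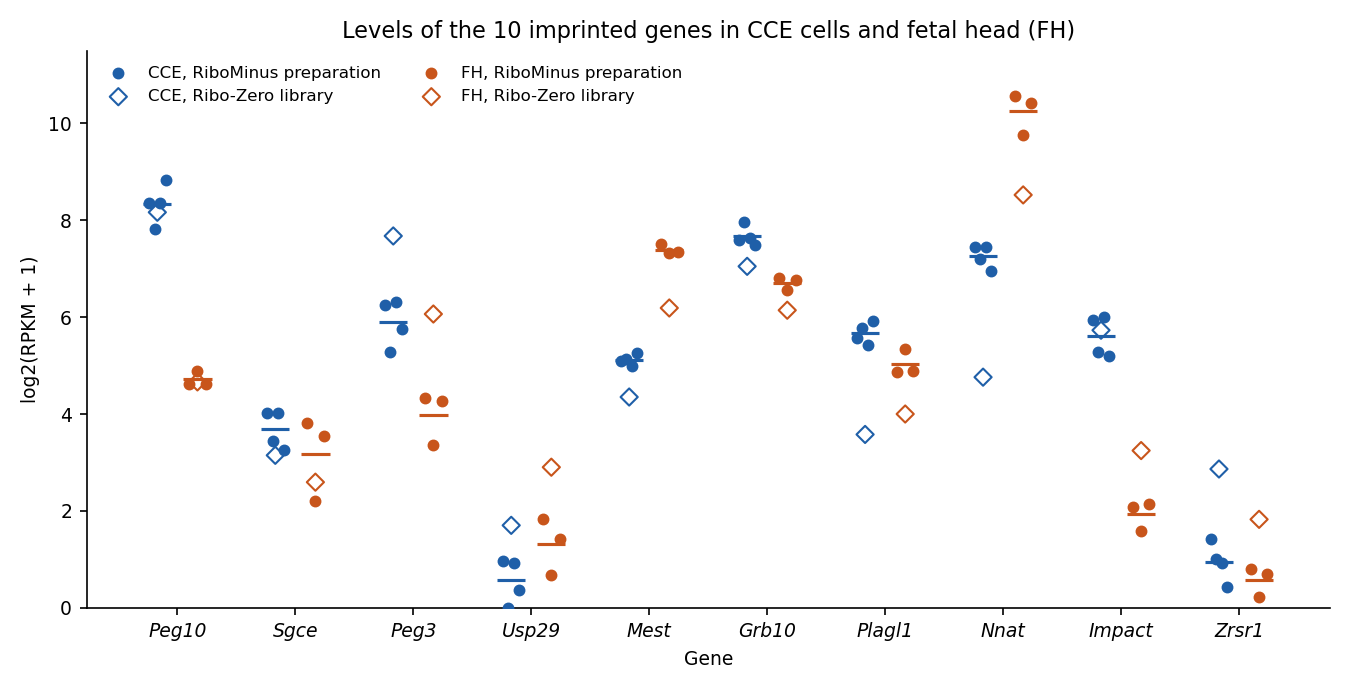
Level of each gene as log2(RPKM + 1) in the 4 CCE (blue) and 3 FH (orange) RiboMinus preparations, with the mean as a line, and in the single Ribo-Zero library of each tissue (open diamonds). Peg10 and Impact are separated most in the downward direction from CCE to FH and Nnat and Mest in the upward direction, while the points of Sgce, Usp29 and Zrsr1 overlap.

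The comparison of FH with CCE asks which of these genes differ in level between the fetal head and the differentiated cells. Nnat and Mest were higher in FH, by 8.09-fold and 4.95-fold in mean RPKM. Impact, Peg10, Peg3, Grb10 and Plagl1 were lower in FH, by 17.1-fold, 13.2-fold, 3.92-fold, 1.96-fold and 1.57-fold. Sgce did not pass the test, and Usp29 and Zrsr1 were under the filter. Thus of the 8 genes tested 2 were called higher and 5 lower (limma on log2(RPKM + 1), Benjamini-Hochberg adjusted p under 0.05), where 54.7% of all 10306 genes tested were called, 19.9% as higher and 34.8% as lower. Impact passed the filter on its CCE level alone. The RPKM ranges of the preparations did not overlap between tissues for the 7 genes called, where this held for 56.2% of all genes tested. Scaling with median-of-ratios size factors moved the median difference of all genes from -0.34 to -0.09 and the split of called genes from 2056 higher and 3582 lower to 2537 and 2533. With that scaling the Plagl1 difference was -0.39 and no longer called (limma adjusted p = 0.205), and the other 6 calls stood.

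**Figure D2:**
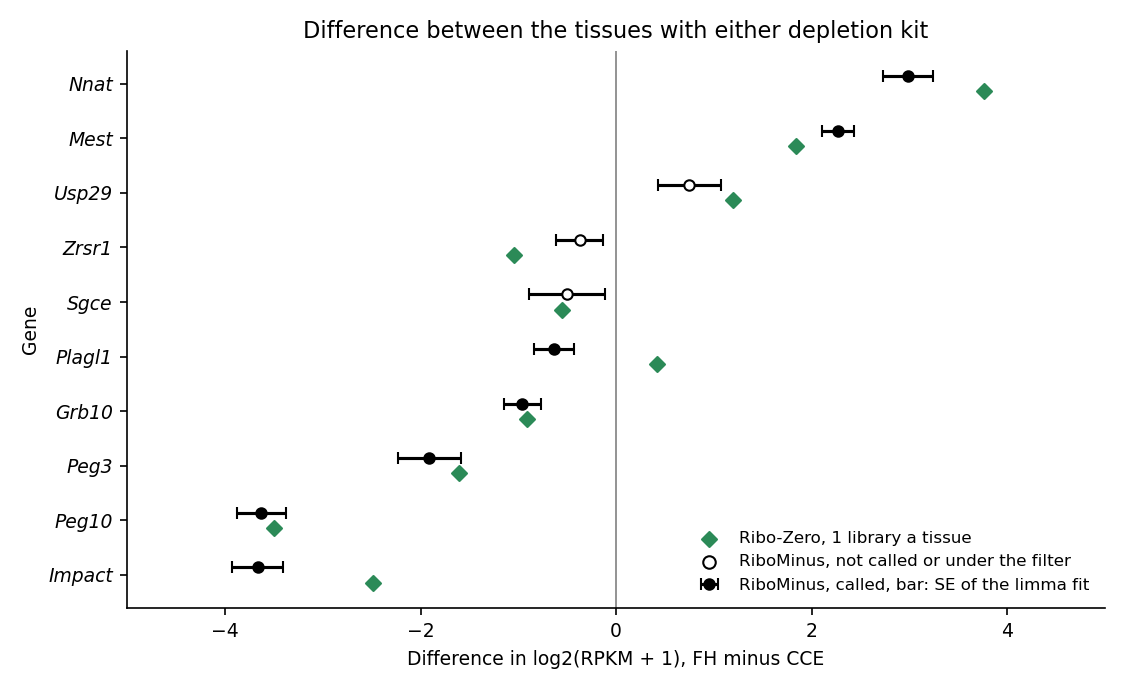
Difference in log2(RPKM + 1) between FH and CCE for each gene, from the limma fit over 7 RiboMinus preparations (circles, filled where called, bars the SE of the fit) and from the 2 Ribo-Zero libraries (diamonds, no replicate). Plagl1 stands at -0.64 with RiboMinus and at 0.42 with Ribo-Zero, and the other 9 genes lie on the same side of 0 with both kits.

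Nnat encodes neuronatin, a small membrane protein of developing neurons, and lies on chromosome 2 (157385814 to 157388258, plus strand) within an intron of Blcap. In CCE it was at 146.5 and 122.7 RPKM in the sheared preparations CCE1 and CCE2 and at 174 and 173 RPKM in the hydrolysed ones. In FH it was at 870.2 RPKM in FH1 sheared, 1508 RPKM in FH1 hydrolysed and 1364 RPKM in FH2 hydrolysed. The lowest FH preparation was thus above the highest CCE preparation, and the difference was 2.98 ± 0.26 (SE) on the log2(RPKM + 1) scale (limma adjusted p = 1.77e-05). Libraries of Vienna-IMP alone gave 3.01 and those of Nijmegen alone 2.82. In the Ribo-Zero libraries Nnat was at 26.1 RPKM in CCE and 367 RPKM in FH, a ratio of 14.05 with a counting interval of 13.3 to 14.8.

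Further measures moved with the Nnat values. Single FH libraries ranged from 861 to 1986 RPKM, and the 2 libraries of FH1 hydrolysed held 1986 RPKM at Vienna-IMP and 875.3 RPKM at Nijmegen. Without the Vienna-IMP library of FH1 hydrolysed, which the study itself sets apart, the difference was 2.72 (limma adjusted p = 5.31e-05). In addition 75.3% of the Nnat tags of the pooled FH RiboMinus libraries repeated a position already taken in their library, against 34.3% in CCE. With each position and strand counted once per library the difference was 1.64 (limma adjusted p = 0.00111). How far repeats are copies of 1 molecule or separate fragments of a short, abundant transcript was not tested.

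Mest encodes an alpha/beta hydrolase and is paternally expressed in fetal mesoderm. It was at 34.3 and 37.6 RPKM in sheared CCE1 and CCE2 and at 33.0 and 30.7 RPKM in the hydrolysed ones. The FH preparations held 159 RPKM (FH1 sheared), 182 RPKM (FH1 hydrolysed) and 163 RPKM (FH2 hydrolysed). All FH preparations were above all CCE preparations and the difference was 2.28 ± 0.16 (SE, limma adjusted p = 6.26e-06), with 2.30 at Vienna-IMP and 2.19 at Nijmegen. Ribo-Zero gave 19.4 RPKM in CCE and 72.0 RPKM in FH. The difference was 1.60 with positions counted once (limma adjusted p = 0.000228), where 46.2% of FH and 16.0% of CCE RiboMinus tags repeated a position.

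The annotated Mest gene (chromosome 6, 30673547 to 30698457, plus strand) has 5 exons with 691 bases upstream of the exon at 30688050. Of the RiboMinus tags 0 of 1729 in CCE and 0 of 6607 in FH lay in these exons, which allows shares of up to 0.174% and 0.0454%. The Ribo-Zero libraries held 4 of 2195 and 5 of 13727 tags there. The sixth exon, whose start carries the hexamer shown above, had 75.6 RPKM in CCE and 363 RPKM in FH with RiboMinus. In both tissues the Mest tags therefore lay from the downstream start onwards.

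Peg10, a gene derived from the gag and pol regions of a retrotransposon and needed for the placenta, showed the opposite order. Its levels were 225.3 and 456 RPKM in sheared CCE1 and CCE2 and 329 and 325 RPKM in the hydrolysed ones. FH held 28.5 RPKM in FH1 sheared and 23.8 RPKM in both FH1 and FH2 hydrolysed. The groups did not overlap and the difference was -3.63 ± 0.25 (SE, limma adjusted p = 4.67e-06). Vienna-IMP alone gave -3.60 and Nijmegen alone -3.51. In Ribo-Zero libraries Peg10 was at 286.1 RPKM in CCE and 24.3 RPKM in FH, close to the RiboMinus values in both tissues.

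Within CCE the 8 libraries fell at 2 levels of Peg10. The libraries of CCE1 sheared at both locations, of CCE1 hydrolysed at Nijmegen and of CCE2 hydrolysed at Vienna-IMP lay between 206 and 227 RPKM. Those of CCE2 sheared at both locations, of CCE2 hydrolysed at Nijmegen and of CCE1 hydrolysed at Vienna-IMP lay between 397 and 461 RPKM. Each sheared preparation therefore kept its level at both locations, and each hydrolysed number changed level with the location. Over the 10306 genes tested the log2 ratio of CCE1 to CCE2 correlated with r = 0.447 between the locations for sheared and with r = -0.45 for hydrolysed libraries, as a description across genes that share libraries and depth. For FH1 to FH2 hydrolysed the same r was -0.408. The preparation numbers come from the study's own lane list, so a value given for a hydrolysed preparation of either tissue may sum libraries of 2 different preparations. With the numbers of the hydrolysed libraries crossed at Nijmegen the Peg10 difference was -3.56 (limma adjusted p = 1.15e-05).

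**Figure D3:**
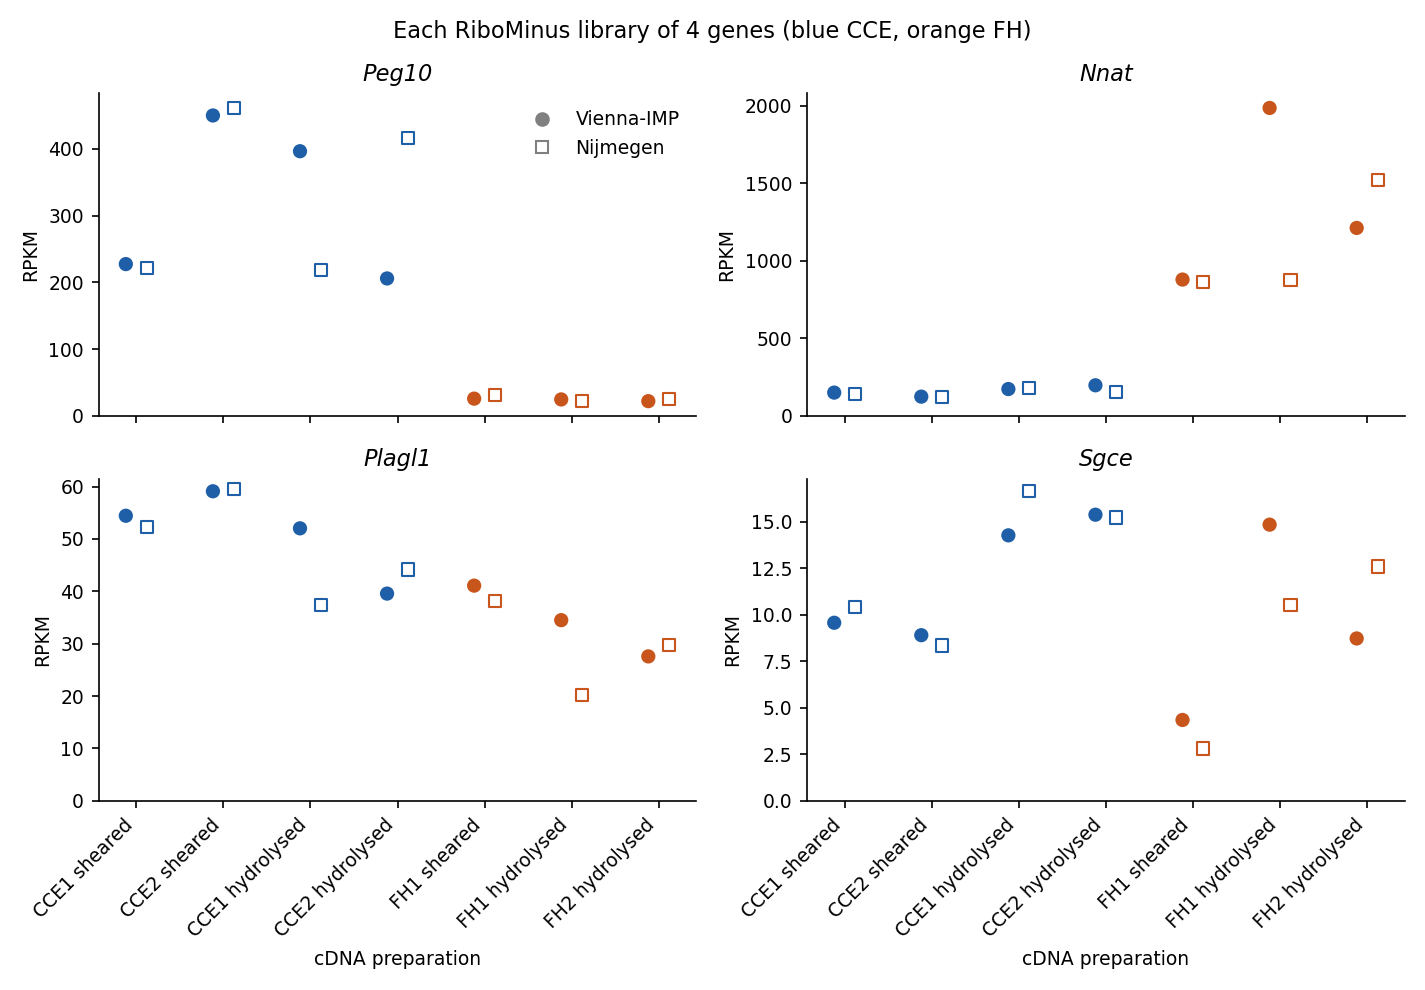
RPKM (linear axes from 0) of Peg10, Nnat, Plagl1 and Sgce in each RiboMinus library, by cDNA preparation, at Vienna-IMP (filled circles) and Nijmegen (open squares), with CCE in blue and FH in orange. Peg10 lies near 206 to 227 or near 397 to 461 RPKM in CCE, Nnat varies from 861 to 1986 RPKM within FH, and Sgce is lower in sheared than in hydrolysed preparations.

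The coding part of Peg10 is read in 2 overlapping frames, and the annotation leaves a short gap between its exon 2, which ends at 4705330 of chromosome 6, and its exon 3, which starts at 4705333. The letters at this gap are shown because the heptamer GGGAAAC, in capitals, is the slippery site at which ribosomes shift frame.
Peg10, exon 2 to exon 3 (chr6:4705312-4705341, plus strand): caagaattcgccgccGGGAAACtccccggc
Tags were found on both sides of the gap, at 478 RPKM in exon 2 and 301 RPKM in exon 3 in CCE RiboMinus libraries and at 37.0 and 22.1 RPKM in FH. The Ribo-Zero libraries held 325 and 281 RPKM in CCE and 26.5 and 24.3 RPKM in FH. Both exons were thus lower in FH, and Peg10 as a whole is a single transcript of 3 exons in this annotation (4697306 to 4710514, plus strand).

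Sgce encodes epsilon-sarcoglycan, a membrane protein of muscle and brain, and is transcribed from the start next to Peg10 in the opposite direction (4624350 to 4697204, minus strand). It was at 9.87 and 8.62 RPKM in sheared CCE1 and CCE2 and at 15.2 and 15.3 RPKM in the hydrolysed ones. FH held 3.60 RPKM in FH1 sheared, 13.001 RPKM in FH1 hydrolysed and 10.6 RPKM in FH2 hydrolysed. The tissues overlapped and the difference of -0.50 ± 0.39 (SE) did not pass the test (limma adjusted p = 0.295). It did pass with fragmentation as a covariate (-0.67, limma adjusted p = 0.00679) and among hydrolysed preparations alone (-0.35, limma adjusted p = 0.0325), and it was -0.01 without FH1 sheared, -0.82 without FH1 hydrolysed and -0.28 with median-of-ratios scaling, none of which passed. Ribo-Zero gave 7.87 RPKM in CCE and 5.04 RPKM in FH, a ratio of CCE to FH of 1.56 with a counting interval of 1.41 to 1.73.

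Peg3 encodes a large zinc finger protein that acts on growth and maternal behaviour, and spans 6656603 to 6683132 of chromosome 7 on the minus strand. It was at 37.98 and 53.1 RPKM in sheared CCE1 and CCE2 and at 74.7 and 78.4 RPKM in the hydrolysed ones. FH held 9.31 RPKM in FH1 sheared, 19.1 RPKM in FH1 hydrolysed and 18.4 RPKM in FH2 hydrolysed. The groups did not overlap and the difference was -1.91 ± 0.33 (SE, limma adjusted p = 0.00112), with -1.89 at Vienna-IMP and -1.87 at Nijmegen. In both tissues Peg3 was higher in the Ribo-Zero libraries, at 204 RPKM in CCE and 66.0 RPKM in FH.

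Usp29, which encodes a ubiquitin-specific protease and is known to be transcribed away from the Peg3 promoter, is annotated in GENCODE M1 only as 1 exon of 2610 bases (chromosome 7, 6913871 to 6916480, plus strand). It had 20 tags in all CCE and 47 tags in all FH RiboMinus libraries. In CCE it was at 0 and 0.283 RPKM in sheared CCE1 and CCE2 and at 0.96 and 0.911 RPKM in the hydrolysed ones. FH held 0.609 RPKM in FH1 sheared, 2.58 RPKM in FH1 hydrolysed and 1.68 RPKM in FH2 hydrolysed. The tissues overlapped, and in a fit without the filter on low genes, where 42.6% of 17724 genes were called, the difference of 0.75 ± 0.32 (SE) was not called (limma adjusted p = 0.0938). It depended on the scale, at 1.74 with a pseudocount of 0.1 and 2.04 with limma voom, neither called (limma adjusted p = 0.132 and 0.0608), and was 0.49 without FH1 hydrolysed (limma adjusted p = 0.286). It was called with fragmentation as a covariate (0.61), in libraries of Vienna-IMP (0.71), in hydrolysed preparations (0.68) and without FH1 sheared (1.07), with limma adjusted p between 0.00844 and 0.041. The deeper Ribo-Zero libraries held 169 and 819 tags, or 2.26 RPKM in CCE and 6.48 RPKM in FH, a ratio of 2.87 with a counting interval of 2.43 to 3.41.

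Between the start of Peg3 and the annotated Usp29 exon lie 230738 bases. Outside the exons of other genes this stretch had 788 RiboMinus tags in CCE and 708 in FH, or 0.262 and 0.31 RPKM. When it was cut into 3 equal parts, 691 of the CCE tags lay in the part next to Peg3, 43 in the middle part and 54 in the part next to Usp29. In FH the counts were 429, 177 and 102. Ribo-Zero libraries held 2168, 100 and 104 tags in CCE and 3303, 1144 and 629 in FH. The tags of both tissues were therefore densest near Peg3, and FH had the higher counts in the middle part with both kits although its RiboMinus pool held fewer tags. The FH Ribo-Zero library held 48426051 tags against 28708715 in CCE, so the raw counts of that kit are not levels. Since the libraries are not strand-specific, which transcript these tags belong to was not measured.

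Grb10 encodes an adaptor that restrains insulin and growth factor signalling (chromosome 11, 11830511 to 11938686, minus strand). Its levels were 249 and 178 RPKM in sheared CCE1 and CCE2 and 193 and 199 RPKM in the hydrolysed ones. FH held 93.5 RPKM in FH1 sheared, 111 RPKM in FH1 hydrolysed and 108 RPKM in FH2 hydrolysed. All FH preparations were below all CCE preparations and the difference was -0.96 ± 0.19 (SE, limma adjusted p = 0.00269). The locations gave -0.99 (Vienna-IMP) and -0.998 (Nijmegen) and the Ribo-Zero libraries 131 RPKM in CCE and 69.7 RPKM in FH.

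The first exons of Grb10 are of interest because its neuronal transcripts are known to start at other first exons than those of other tissues. The exon that starts at 11937404 held 3439 tags in CCE and 1121 in FH RiboMinus libraries, or 1255 and 538 RPKM. The 3 annotated first exons downstream of it, between 11925841 and 11927974, held 1, 5 and 53 tags in CCE and 2, 3 and 22 tags in FH. In Ribo-Zero libraries these 3 exons held 8, 16 and 29 tags in CCE and 16, 24 and 56 tags in FH, against 1907 and 1481 tags in the exon at 11937404. Among these 4 first exons, the one at 11937404, whose window is rich in CpG pairs, held the most tags in FH as well as in CCE. Further transcripts are annotated to start inside the gene. The one that starts at 11856027 is not coding and held 144 tags in CCE and 137 in FH RiboMinus libraries in bases of no other transcript, and 394 and 615 in Ribo-Zero. Those that start at 11838619 and 11846333 held 16 and 2 tags in CCE and 25 and 0 in FH RiboMinus libraries, and the one at 11870645 has no bases of its own.

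Plagl1, a zinc finger factor that restrains the cell cycle (chromosome 10, 12810497 to 12851500, plus strand), was at 53.7 and 59.3 RPKM in sheared CCE1 and CCE2 and at 46.5 and 42.2 RPKM in the hydrolysed ones. FH held 39.7 RPKM in FH1 sheared, 28.3 RPKM in FH1 hydrolysed and 28.6 RPKM in FH2 hydrolysed. The groups did not overlap and the difference was -0.64 ± 0.20 (SE, limma adjusted p = 0.0248). It was not called at either location alone, with -0.57 at Vienna-IMP (limma adjusted p = 0.0608) and -0.73 at Nijmegen (limma adjusted p = 0.0914). The call was also lost without CCE1 sheared, CCE2 sheared, FH1 hydrolysed or FH2 hydrolysed (limma adjusted p up to 0.0959), and with the hydrolysed numbers crossed at Nijmegen (-0.63, limma adjusted p = 0.0584). In the Ribo-Zero libraries the order was the reverse, with 11.0 RPKM in CCE and 15.01 RPKM in FH, a ratio of 1.37 with a counting interval of 1.30 to 1.44. Of the 5638 genes called with RiboMinus, 274 or 4.86% had the opposite sign in Ribo-Zero. Of its exon positions 92.0% are the midpoint of a 36-mer that is unique in the genome, the lowest share of the 10 genes.

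Impact encodes an inhibitor of the stress kinase GCN2 and is known for its expression in neurons. It was at 37.7 and 35.98 RPKM in sheared CCE1 and CCE2 and at 60.1 and 63.4 RPKM in the hydrolysed ones. FH held 2.01 RPKM in FH1 sheared, 3.22 RPKM in FH1 hydrolysed and 3.44 RPKM in FH2 hydrolysed, which were 105 tags in all. The groups did not overlap and the difference was -3.67 ± 0.26 (SE, limma adjusted p = 6.2e-06). Libraries of Vienna-IMP alone gave -3.90 and those of Nijmegen alone -3.50. Ribo-Zero gave 52.1 RPKM in CCE and 8.49 RPKM in FH, a ratio of CCE to FH of 6.14 with a counting interval of 5.79 to 6.51, against 16.5 (13.6 to 20.2) in the pooled RiboMinus libraries.

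Zrsr1 is an intronless gene for a splicing factor, a copy of an X-linked gene that was inserted into Commd1 (chromosome 11, 22873215 to 22876498, plus strand). In this annotation 203 of its exon bases are also an exon of Commd1. It had 45 tags in all CCE and 19 in all FH RiboMinus libraries. Its levels were 1.02 and 0.338 RPKM in sheared CCE1 and CCE2, 1.68 and 0.905 RPKM in the hydrolysed ones, 0.161 RPKM in FH1 sheared, and 0.738 and 0.634 RPKM in FH1 and FH2 hydrolysed. The tissues overlapped, and without the filter the difference of -0.37 ± 0.24 (SE) was not called (limma adjusted p = 0.254). It was -0.83 with a pseudocount of 0.1, -0.84 with limma voom, -0.21 without CCE1 hydrolysed and -0.19 without FH1 sheared, and was called in none of these fits (limma adjusted p between 0.275 and 0.582). The Ribo-Zero libraries held 593 and 405 tags, or 6.29 RPKM in CCE and 2.55 RPKM in FH, a ratio of CCE to FH of 2.47 with a counting interval of 2.17 to 2.81.

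Tags in introns, which come mainly from unspliced RNA, were set against tags in exons of the same gene, and this comparison has values with exact Poisson intervals and no test. The intervals cover the counting error of the intron tags alone, and Impact in FH had 105 exon and 131 intron tags with RiboMinus. In RiboMinus pools the tag density of introns was 24.8% (20.7 to 29.4) of that of exons for Impact in FH and 3.76% (3.42 to 4.14) in CCE. In Ribo-Zero libraries the shares were 13.5% (12.7 to 14.4) and 2.28% (2.10 to 2.47). Impact thus had the lower exon level and the higher intron share in FH with both kits. Its intron level itself was 1.91 RPKM in CCE and 0.765 RPKM in FH with RiboMinus, and 1.19 and 1.15 RPKM with Ribo-Zero. Over the preparations the RiboMinus intron level of Impact was 1.93 ± 0.21 RPKM in CCE (SD, n = 4) and 0.839 ± 0.37 RPKM in FH (SD, n = 3), with ranges of 1.67 to 2.17 and 0.499 to 1.23 RPKM that did not overlap.

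A higher intron share in FH was common to most genes. Over 9486 tested genes with introns and with exon tags in every preparation, the median share was 3.69% in CCE and 6.97% in FH with RiboMinus and 5.37% and 11.4% with Ribo-Zero, and FH was above CCE for 87.0% and 92.4% of them. Among the 8 imprinted genes with introns FH was above CCE for 7 with either kit, all but Nnat, which is near this background. For Sgce it was 1.18% in CCE and 3.76% in FH with RiboMinus and 4.52% and 14.4% with Ribo-Zero. For Plagl1 it was 3.95% and 10.0% with RiboMinus and 14.9% and 20.9% with Ribo-Zero, and for Grb10 1.27% and 3.00%, then 3.22% and 7.01%. Peg3 had 11.3% and 17.9% with RiboMinus but 6.69% and 8.57% with Ribo-Zero. Merged exons also hold bases of non-coding and retained-intron transcripts, which can lower exon densities and raise these shares. In CCE RiboMinus libraries the second Peg3 exon, with 0 of its 4642 bases coding, was at 17.6 RPKM and the last at 84.2 RPKM. The Grb10 exons of 1281 and 2060 bases were at 55.5 and 28.8 RPKM there, and its last exon at 257.5 RPKM. Mest had 1.06% and 1.57% with RiboMinus and 3.02% and 4.14% with Ribo-Zero. The 20876 intron bases of Mest include those upstream of its second start, where its exons held almost no tags. This can lower the Mest shares, and introns from the second start onwards were not counted apart. For Peg10 the RiboMinus intervals overlapped, and for Nnat they overlapped too while Ribo-Zero gave 6.93% in CCE and 3.84% in FH. Nnat lies in an intron of Blcap and the libraries are not strand-specific, so its intron tags can include unspliced Blcap RNA. In Ribo-Zero the Nnat introns were at 1.81 RPKM in CCE and 14.1 RPKM in FH. Those of Blcap were at 1.85 and 3.46 RPKM, and the part of Blcap in the Nnat values was not tested. Over the RiboMinus preparations the share did not overlap between tissues for Impact (2.78% to 5.77% in CCE, 15.5% to 61.2% in FH), Peg3, Sgce and Grb10, or 4 of 8 genes, where every FH preparation was above every CCE preparation for 39.5% of the 9486 genes. It overlapped for Plagl1 (2.22% to 6.33% and 4.51% to 12.9%), Mest, Peg10 and Nnat, so for these 4 genes the tissues were not apart over all preparations. These ranges mix sheared and hydrolysed preparations. Within either method, with a single sheared FH preparation, the Plagl1 share was higher in every FH preparation than in every CCE preparation. Usp29 and Zrsr1 have no intron in this annotation.

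**Figure D4:**
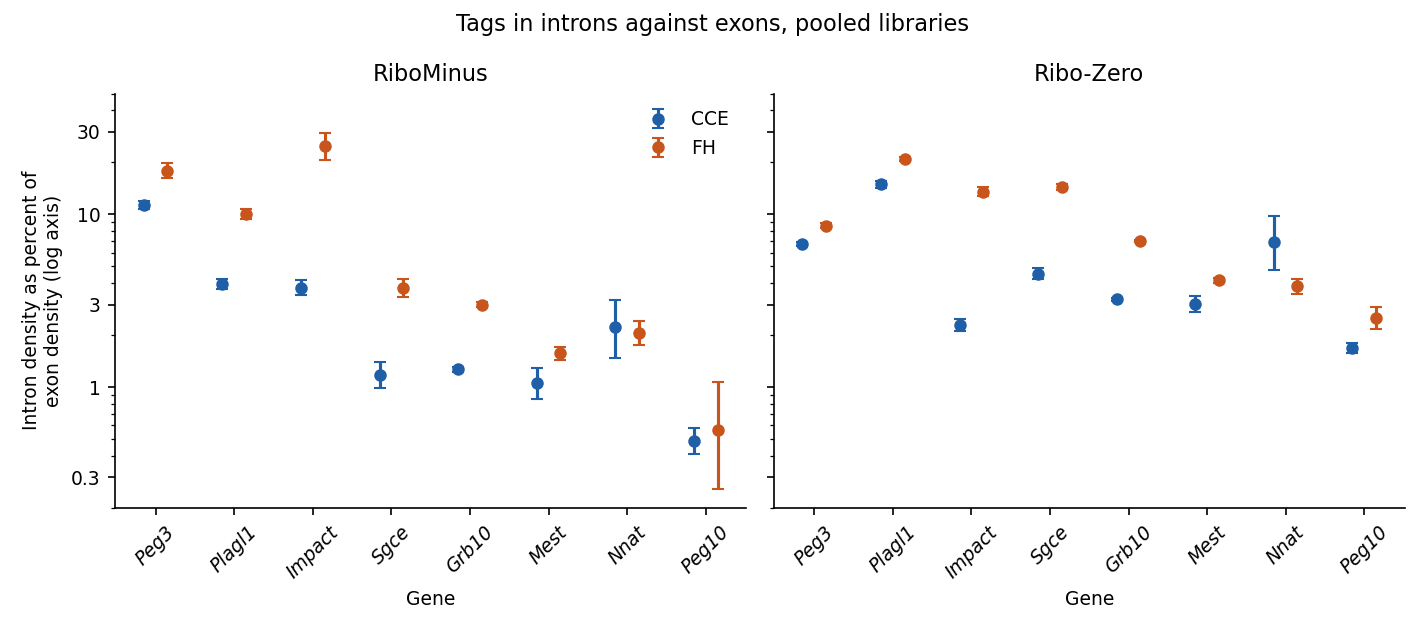
Tag density in introns as a percent of that in exons (log axis) for the 8 genes with introns, in pooled RiboMinus and in Ribo-Zero libraries, with CCE in blue, FH in orange and exact Poisson 95% intervals as bars. Impact shows the widest gap, 3.76% to 24.8% with RiboMinus and 2.28% to 13.5% with Ribo-Zero, and Nnat with Ribo-Zero is the one gene whose FH value lies below the CCE value outside the intervals. Tags in the Nnat introns can include unspliced RNA of its host Blcap. The Mest introns include those upstream of its second start, and exons are merged over all annotated transcripts of a gene.

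The balance of neighbouring genes was compared as the log2 ratio of their RPKM plus 1, with exact two-sided permutation tests over the 7 preparations adjusted over 5 pairs. With 4 against 3 preparations the smallest p that this test allows is 0.0571, so none could pass 0.05. The ratio of Peg10 to Sgce was 4.66 ± 0.61 (SD) in CCE and 1.53 ± 1.01 in FH, a difference of -3.12 (exact permutation p = 0.0571, adjusted p = 0.0952). The ratio of Usp29 to Peg3 was -5.33 ± 0.06 in CCE and -2.67 ± 0.18 in FH, a difference of 2.66 with the same p values. Usp29 lies near or under the pseudocount of 1, which narrows these SDs, and with a pseudocount of 0.1 the ratios were -7.03 ± 1.12 and -3.31 ± 0.45, a difference of 3.71. Nnat to Blcap stood at 3.40 ± 0.17 in CCE and 6.04 ± 0.26 in FH, a difference of 2.64 again with the smallest p. For these 3 pairs the ratios in the preparations of the tissues did not overlap. Of all single genes tested 56.2% did not overlap between the tissues either, so nothing particular to the pairs can be read from it.

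**Figure D5:**
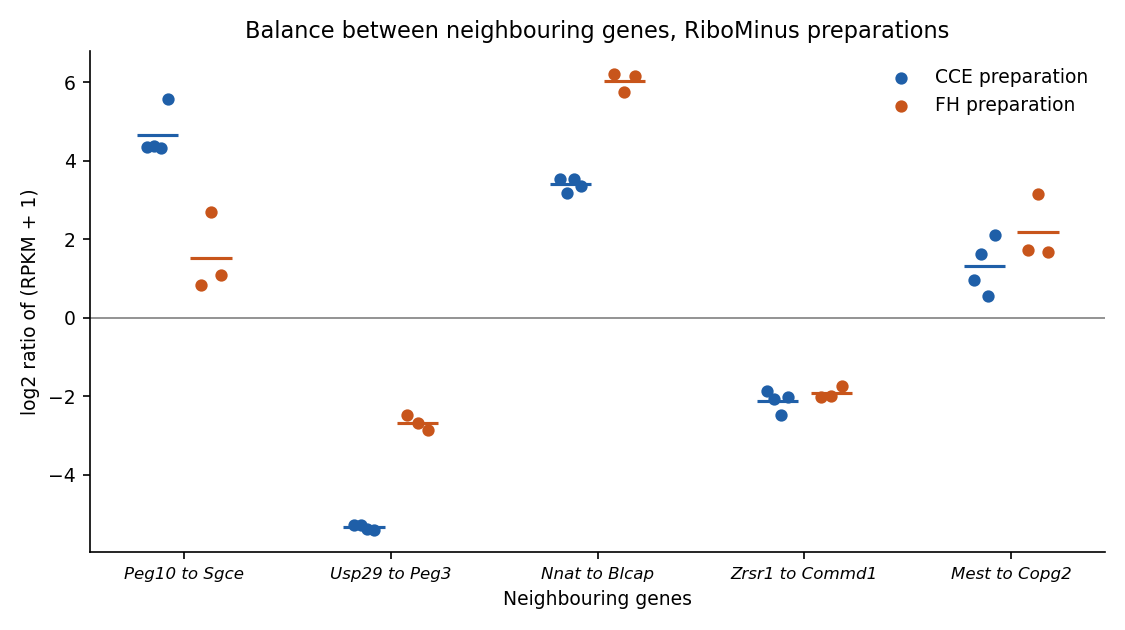
Log2 ratio of RPKM + 1 for 5 pairs of neighbouring genes in each CCE (blue) and FH (orange) RiboMinus preparation, with means as lines. The tissues are apart for Peg10 to Sgce, Usp29 to Peg3 and Nnat to Blcap, and overlap for Zrsr1 to Commd1 and Mest to Copg2.

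Blcap, the host gene of Nnat and a gene linked to cell growth, was at 13.6 ± 1.75 RPKM in CCE and 17.6 ± 2.05 RPKM in FH and was not called (0.35 ± 0.18 SE, limma adjusted p = 0.126). It was called with median-of-ratios scaling (0.58, limma adjusted p = 0.0165) and in hydrolysed preparations only (0.39, limma adjusted p = 0.0081), and was 0.20 and not called with positions counted once. Commd1, the host of Zrsr1 and a regulator of copper and NF-kappaB, was at 7.60 ± 2.27 and 4.72 ± 1.21 RPKM and was not called either (-0.56, limma adjusted p = 0.101), though it was without CCE2 sheared (-0.77, limma adjusted p = 0.0161), with fragmentation as a covariate (-0.65, limma adjusted p = 0.00828) and in hydrolysed preparations only (-0.72, limma adjusted p = 0.0037). With median-of-ratios scaling it was -0.35 and not called. The ratio of Zrsr1 to Commd1 was -2.11 ± 0.27 in CCE and -1.92 ± 0.16 in FH, a difference of 0.19 (exact permutation p = 0.286, adjusted p = 0.286) that became -0.18 with a pseudocount of 0.1 and 0.09 without shared bases. Both genes were under 10 RPKM in every RiboMinus preparation.

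Copg2, a coatomer subunit that is transcribed towards Mest, shares 904 exon bases with the end of Mest. It was called higher in FH, by 1.40 ± 0.44 (SE, limma adjusted p = 0.0252), with 13.9 ± 5.83 RPKM in CCE and 40.6 ± 20.5 RPKM in FH, and lost the call without CCE1 sheared, CCE2 sheared, FH1 hydrolysed or FH2 hydrolysed (1.12 to 1.30, limma adjusted p up to 0.0949). In libraries of Nijmegen alone the difference was 1.19 and not called (limma adjusted p = 0.133), and with positions counted once it was 0.93 and called (limma adjusted p = 0.0366). With the shared bases left out it was at 10.4 ± 4.29 RPKM in CCE and 9.56 ± 4.01 RPKM in FH, and the difference was -0.11 (limma adjusted p = 0.819). Its last exon, which holds the shared bases, was at 22.4 RPKM in CCE and 124 RPKM in FH. In the Ribo-Zero libraries Copg2 without the shared bases was at 29.1 RPKM in CCE and 14.9 RPKM in FH. Mest itself was 35.8 ± 7.14 and 169 ± 20.2 RPKM without the shared bases. The ratio of Mest to Copg2 differed by 0.87 with all bases (exact permutation p = 0.229) and by 2.33 with the unshared bases (exact permutation p = 0.0571). Since the libraries are not strand-specific, tags of the shared bases cannot be divided between the 2 genes.

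A list of 20 genes was drawn up as neighbours of the 10 loci, of which Peg12 lies elsewhere on chromosome 7, beside none of them. Without it 10 of 19 neighbours were tested, of which 2 were called higher and 2 lower in FH and 6 were not called, where 54.7% of all genes tested were called. The higher ones were Copg2, as above, and Asb4, a subunit of a ubiquitin ligase near Peg10, at 3.48 RPKM in CCE and 5.94 RPKM in FH (0.64 ± 0.18 SE, limma adjusted p = 0.0158). The lower ones were Ddc, the aromatic amino acid decarboxylase next to Grb10, at 12.3 and 2.05 RPKM (-2.11 ± 0.30, limma adjusted p = 0.000422), and Calcr, the calcitonin receptor near Peg10, at 6.15 and 0.678 RPKM (-2.09 ± 0.17, limma adjusted p = 1.22e-05). Ddc and Calcr passed the filter on their CCE level alone. Zim1, which lies beside Peg3 and is maternally expressed, was at 11.4 and 7.03 RPKM and missed the threshold (limma adjusted p = 0.0502). The median difference of these 10 neighbours was -0.26, and -0.21 with Peg12, against -0.34 over all genes tested.

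From a list of 18 genes drawn up as imprinted genes of other loci 12 were tested. Of these 5 were called higher, 2 lower and 5 not called, with a median difference of 0.30 against -0.34 over all genes. Whether each of them is imprinted in these tissues was not measured. Over all genes tested 54.7% were called, so the share called in this list is near the background. Nap1l5, Inpp5f, Gatm and Dlx5 passed the filter on their FH level alone and Zdbf2 on its CCE level alone, so a difference was partly fixed by the filter. Dcn, a matrix proteoglycan, rose in FH from 11.7 to 79.3 RPKM (2.59 ± 0.27 SE, limma adjusted p = 5.79e-05), Nap1l5, an intronless gene of neural tissue, from 0.691 to 6.35 RPKM (2.08 ± 0.25, limma adjusted p = 0.000129) and Inpp5f, an inositol phosphatase, from 2.38 to 10.3 RPKM (1.73 ± 0.26, limma adjusted p = 0.00055). Slc38a4, an amino acid transporter of liver and placenta, fell from 55.9 to 3.92 RPKM (-3.49 ± 0.24, limma adjusted p = 5.45e-06), and Zdbf2 from 6.39 to 2.06 RPKM (-1.24 ± 0.28, limma adjusted p = 0.00509). The fall of Slc38a4 was similar in size to those of Impact and Peg10. Gnas, which encodes a G protein subunit, was at 82.8 and 85.1 RPKM and was not called.

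Of 11 genes known to maintain imprints 7 were tested, of which 5 were called lower in FH and 2 not called, where 34.8% of all genes tested were called lower. Uhrf1, which brings the maintenance methyltransferase to newly copied DNA, was at 18.4 RPKM in CCE and 7.07 RPKM in FH (-1.26 ± 0.18 SE, limma adjusted p = 0.000357). Trim28, the cofactor of ZFP57, was at 157 and 84.4 RPKM (-0.88 ± 0.26, limma adjusted p = 0.0202). Zfp42, a pluripotency gene, was at 8.00 RPKM in CCE and at 0 in each FH preparation (limma adjusted p = 1.17e-06). Dnmt1 at 39.0 and 23.5 RPKM and Zfp57 at 6.47 and 3.50 RPKM were the other genes called, and Ctcf and Setdb1 were not called. Zfp42 passed the filter on its CCE level alone. The median difference of those tested was -0.72, against -0.34 over all genes tested.

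Hydrolysis of RNA and shearing of cDNA were compared because the fragmentation differs between preparations of both tissues. Both methods were applied to the same depleted RNA, so sheared and hydrolysed preparations share RNA although the fits treat them as separate samples. Of the 8 genes tested 4 were higher and 1 lower in hydrolysed preparations, where 46.0% of all genes tested were called and 25.7% as higher. Sgce was higher by 0.99 ± 0.18 (SE, limma adjusted p = 0.00244), Peg3 by 0.83 (limma adjusted p = 0.00167), Impact by 0.65 (limma adjusted p = 0.00204) and Nnat by 0.51 (limma adjusted p = 0.0162). Plagl1 was lower by a log2 difference of -0.39 (limma adjusted p = 0.0166), while Peg10, Mest and Grb10 were not called. The calls of Nnat and Plagl1 were each lost in 4 of 10 alternatives, among them the fit without FH1 sheared, the single sheared FH preparation (limma adjusted p = 0.139 and 0.0956). Within CCE alone, with 2 against 2 preparations, 0 of 10306 genes were called by limma and 3568 had an unadjusted p under 0.05, and the values there were 0.67 for Sgce, 0.76 for Peg3, 0.73 for Impact, 0.37 for Nnat and -0.34 for Plagl1. A term for a different effect of fragmentation in the tissues, added after the data were seen, was called by limma for 8 of 10306 genes, with 842 at an unadjusted p under 0.05. None of the 8 imprinted genes tested was among those called, Sgce having a difference of 0.81 (limma adjusted p = 0.476).

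The position of tags along the transcripts differed with fragmentation for some of the genes. With the exon bases of a gene cut into 3 equal parts, the last part of Mest held 14.4% of the tags in FH1 sheared, 37.2% in FH1 hydrolysed and 39.3% in FH2 hydrolysed. In CCE it held 16.4% and 19.8% in sheared and 32.2% and 41.8% in hydrolysed preparations. The last part of Mest includes the 904 bases shared with Copg2, whose tags cannot be told from those of Mest. The last part of Peg10 held between 6.66% and 9.57% in sheared and between 15.1% and 16.8% in hydrolysed preparations of both tissues. The last part of Nnat held 32.9% to 39.4% in sheared and 57.8% to 60.7% in hydrolysed ones. For these 3 genes, and for Grb10 (26.3% to 33.95% and 46.8% to 51.2%) and Plagl1 (1.71% to 3.48% and 4.66% to 7.84%), each hydrolysed preparation had a larger share in the last part than each sheared one. These were 5 of the 8 genes with 10 tags or more in every preparation, and the same held for 32.8% of the 8405 tested genes with that many tags. The reverse held for 5.07% of those genes and for 0 of the 8. The shares of the methods overlapped for Peg3, Sgce and Impact, with 11.0% to 19.0% in sheared and 8.45% to 14.5% in hydrolysed preparations for Sgce. Usp29 and Zrsr1 had too few tags for such shares.

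The kits gave different levels for several of the genes. Each kit used other RNA, other locations and another read length, so these cannot be told apart. The Ribo-Zero totals also include 2363248 (CCE) and 2200005 (FH) mitochondrial tags, where the RiboMinus libraries held 0. RPKM of the kits are therefore scaled to unlike totals. On the scale of RPKM + 1 the median gene had 0.824 times the level in Ribo-Zero compared with pooled RiboMinus libraries in CCE and 0.714 times in FH. The shares of tested genes given next use that scale too, whereas the ratios of single genes are of RPKM itself. Peg3 was 3.24 times higher in Ribo-Zero in CCE and 3.90 times in FH, a ratio above that of 97.5% and 99.1% of tested genes. Zrsr1 was 5.99 and 4.37 times higher and Usp29 3.84 and 3.57 times. In the other direction Nnat had 0.167 times the RPKM in CCE and 0.277 times in FH, below all but 0.854% and 5.62% of tested genes. Plagl1 had 0.22 times in CCE and 0.49 times in FH. Impact had 1.03 times in CCE and 2.75 times in FH, and Peg10 0.865 and 0.987 times.

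For each of the 8 genes tested the other tested gene with the most similar pattern was sought by Pearson's r of log2(RPKM + 1) over 9 units, the 7 RiboMinus preparations and 2 Ribo-Zero libraries. These units fall into 2 tissues and many genes follow the tissue, so r is a description. Nnat was most like Actc1, an actin of heart and fetal muscle (r = 0.993), Mest most like Camk1g, a kinase of neurons (r = 0.993), and Impact most like Scd2, a fatty acid desaturase (r = 0.996). The closest to Peg10 was Gm98 (r = 0.997), to Peg3 Gm5805 (r = 0.996), to Grb10 Ppp2cb, a phosphatase subunit (r = 0.994), to Plagl1 Slc4a2, an anion exchanger (r = 0.995), and to Sgce Psmb7, a proteasome subunit (r = 0.977). Between 192 genes for Sgce and 1044 for Mest had r above 0.9.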

How the data were processed

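Files of 14 RiboMinus libraries and of 2 Ribo-Zero libraries entered the work. Alignment by the authors placed reads of 36 nt (RiboMinus) or 51 nt (Ribo-Zero) on mm9 with Bowtie, and they deposited 1 line for each uniquely placed tag. A further column of the deposited files, the score, is constant in each library and was left aside. Samples were grouped by the labels, while preparation numbers come from the study's lane list. A further 8 samples (extra lanes and combined data) were not analysed here.

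For each gene the tag midpoints in merged exons were counted. The merged exons cover all annotated transcripts of a gene, among them non-coding and retained-intron ones. The exons are those of GENCODE M1, whose build is the same. RPKM used all unique tags of a library, among them the mitochondrial tags that only the Ribo-Zero files hold. Tags of both locations were summed per preparation. A gene entered the test where its mean was over 3 RPKM in at least 1 tissue. The test was that of limma (version 3.58.1, R 4.3.3) on log2(RPKM + 1), its variance following a trend with level, and Benjamini-Hochberg adjustment ran over all genes tested. This procedure was tested on simulated data with independent samples, unlike the preparations here, some of which share RNA. Poisson intervals are at 95%, a count of 0 was given a floor of 3 tags, and both cover counting error only, since tags may be copies of 1 molecule. Neighbouring genes were compared with exact permutation tests. Counting, exact tests and figures were done in Python 3.11.15 (scipy 1.17.1, numpy 2.4.6, numba 0.67.0, pandas 2.3.3, matplotlib 3.10.9).

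The 10 genes and the lists of neighbours, other imprinted genes, maintenance genes and markers were chosen with earlier results of these data known. All 10 genes are named with their values. Of each list the called genes are counted, at most the 3 largest called differences in each direction are named with their statistics, and both genes of each neighbouring pair are named. Zim1, Gnas, Ctcf, Setdb1, Dnmt1, Zfp57, Pou5f1 and the 2 further windows were chosen after their values were seen. Of the listed genes Zim3, Zfp264, Peg13 and Map2 had no entry by that name and no value. Alternatives tried were another pseudocount, other filters, another scaling, limma voom, covariates, single locations, crossed numbers, repeated positions counted once, unshared exon bases, and each preparation left out. The term for tissue by fragmentation was added after the data were seen, and Usp29 and Zrsr1 were fitted without the filter under every alternative except those of the filter itself.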

Additional observations from a re-analysis of the deposited data

Results flagged for a closer look

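The ratio of FH to CCE for Plagl1 pointed in opposite directions with the 2 kits. All 3 FH preparations were below all 4 CCE preparations with RiboMinus, whereas the single Ribo-Zero libraries gave a ratio of FH to CCE of 1.37. The difference between the kits was not tested, since Ribo-Zero has 1 library per tissue. In each of 30 groups of 4 to 8 values of the 10 genes, the highest and the lowest value were examined for a gap to the others past Dixon's critical value at 95%, and 0 were past it, where chance gives about 1 in 20.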

How the results depend on the processing

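The calls of Nnat, Mest, Peg10, Peg3, Grb10 and Impact between FH and CCE kept their direction and their side of the threshold under each of the 21 alternatives run. Plagl1 lost its call in 8 of 21, with adjusted p up to 0.205, and each time it kept its direction; among the preparations left out these were CCE1 sheared, CCE2 sheared, FH1 hydrolysed and FH2 hydrolysed. Usp29, in fits without the filter, was called in 4 of 19 and Zrsr1 in none of 19 (lowest adjusted p 0.0592). The count of genes called between the tissues was 4721 to 5792 with each preparation left out and 5638 with all. Preparation numbers do not pair the samples by any label, and same-numbered preparations of the tissues correlated in their deviations with r between -0.706 and 0.626 over 6 pairs; with the replicate block of the preparation number 5104 genes were called and no call among the 8 genes changed. Between fragmentation methods 4742 genes were called, 0 in CCE preparations only (fewer samples), and 2829 to 5808 with each preparation left out, the lowest without FH1 sheared; the cause was not tested. Directions that turned there were of genes not called: Peg10 was 0.029 in CCE only and -0.37 to 0.14 with each preparation left out (called without CCE1 sheared, at -0.37); Grb10 was -0.10 in CCE only and -0.10 to 0.18; and Mest was -0.17 to 0.0048. The fragmentation calls of Nnat and of Plagl1 were each lost in 4 of 10 alternatives (both without FH1 sheared, Nnat without FH1 hydrolysed, Plagl1 without CCE2 hydrolysed, and both in CCE only and with crossed numbers), and those of Sgce, Peg3 and Impact in CCE only. Copg2 became -0.11 with shared bases left out, and the difference of Zrsr1 to Commd1 -0.18 with a pseudocount of 0.1, where the main values were 1.40 and 0.19. With each preparation left out the difference was -3.70 to -2.77 for Peg10 to Sgce, 2.57 to 2.75 for Usp29 to Peg3, 2.55 to 2.79 for Nnat to Blcap, 0.07 to 0.28 for Zrsr1 to Commd1 and 0.39 to 1.14 for Mest to Copg2. Depth limits Usp29, Zrsr1 and, in FH, Impact in single RiboMinus libraries.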
